A study of Homo sapiens with 10 samples.

Results

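Collagen and laminin chain genes were taken as all genes whose symbol is COL, a number, A and a number, or LAM followed by A, B or C and a number. The rule found 56 genes among the 58037 gene identifiers of the expression tables, 44 for collagen chains and 12 for laminin chains. They were followed in A549, a human lung adenocarcinoma cell line, and in A549/DDP, a derivative of that line resistant to cisplatin (DDP), a platinum drug used against lung cancer. Each line had 2 input libraries, made from RNA fragments not pulled down, and 2 m6A-seq libraries, made from fragments pulled down with an antibody against N6-methyladenosine (m6A), a methyl mark on adenosines inside mRNA. Both lines were grown in RPMI medium with serum and were at passage 10 or below, and the labels give no drug treatment of the cells sequenced. The resistant line is a single derivative, so what goes with resistance and what goes with that one derivative cannot be told apart. The labels do not say that replicates came from separate cultures, so p-values measure the spread between these libraries, which may be technical.

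Collagens are secreted proteins whose chains are wound into a triple helix. Fibrillar collagens build the banded fibrils of connective tissue, whereas collagen IV forms the sheet-like network of the basement membrane under epithelia, and its genes lie in head-to-head pairs. Laminins are cross-shaped trimers of an alpha, a beta and a gamma chain. They form the other network of the basement membrane, and epithelial cells hold on to it through integrins.

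The A549 inputs held 35286514 and 34570074 expected counts and the A549/DDP inputs 29225501 and 33971561. The chain genes took 0.758% and 0.707% of the counts in the A549 inputs and 0.515% and 0.502% in the A549/DDP inputs, or summed levels of 3765.3 and 3601.5 against 2541.6 and 2437.0 TPM (a level corrected for transcript length and scaled to a fixed total). A second pair of A549 inputs held 855034 and 982036 counts, 75.2% and 73.9% of them mitochondrial, with 388 and 319 counts on chain genes. That pair was kept out of the comparison and used as an alternative only. Epithelial markers summed to between 8621.05 and 11388.83 TPM in A549 and between 15991.1 and 16046.77 TPM in A549/DDP. KRT8, KRT18 and CDH1 rose and KRT7 fell in A549/DDP, 4 of 6 markers, while EPCAM, a defining marker, was low in both lines (2.45 and 6.95 TPM in A549, 4.54 and 5.35 TPM in A549/DDP). Fibroblast markers summed to between 3.45 and 5.54 TPM in A549 and between 3.92 and 10.18 TPM in A549/DDP, with none of the 3 tested passing. Endothelial markers stayed at or below 0.4 TPM in both lines. Leukocyte markers lay between 0.25 and 0.93 TPM in A549 and between 2.44 and 4.86 TPM in A549/DDP.

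In A549/DDP the classical collagen IV chains COL4A1 and COL4A2 fell and the other collagen IV chains COL4A4, COL4A5 and COL4A6 rose. The fibrillar chains COL5A1, COL5A2, COL5A3 and COL11A1 fell, as did the laminin chains LAMC1 and LAMB1. Of the 56 genes, 43 passed the expression filter, and 12 of these 43 (27.9%) had an adjusted p under 0.05 (Benjamini-Hochberg over all genes tested, from the quasi-likelihood test of edgeR). The same was true of 14.9% of the 16406 genes tested. Of the 12, 3 were higher in A549/DDP, where 6.85% of all genes were, and 9 were lower, where 8.00% of all genes were. The unadjusted p was under 0.05 for 20 of the 43, and for 5360 of the 16406 genes tested. In each of the 12 the CPM values of the lines did not overlap, but this held for 32 of the 43 tested. With 2 libraries a line it adds little to a call, and the share over all genes was not counted. With the first pair of A549 inputs exchanged for the second, 5 of the 12 kept their call and direction (COL4A1, COL4A4, COL4A5, COL4A6 and COL5A1) and COL5A2 passed in the opposite direction. With both pairs together 3 kept their call, COL4A1, COL4A6 and COL11A1. The median log2 fold change was −0.41 over the 43 genes, −0.25 over 32 collagen genes and −0.78 over 11 laminin genes, beside a median of 0 over all genes tested. The other 13 genes did not enter the test. COL2A1, COL6A5, COL6A6, COL9A1, COL10A1, COL19A1 and COL23A1 had 0 counts in the 4 inputs, and the remaining 6 had at most 66 counts in any library.

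**Figure D1:**
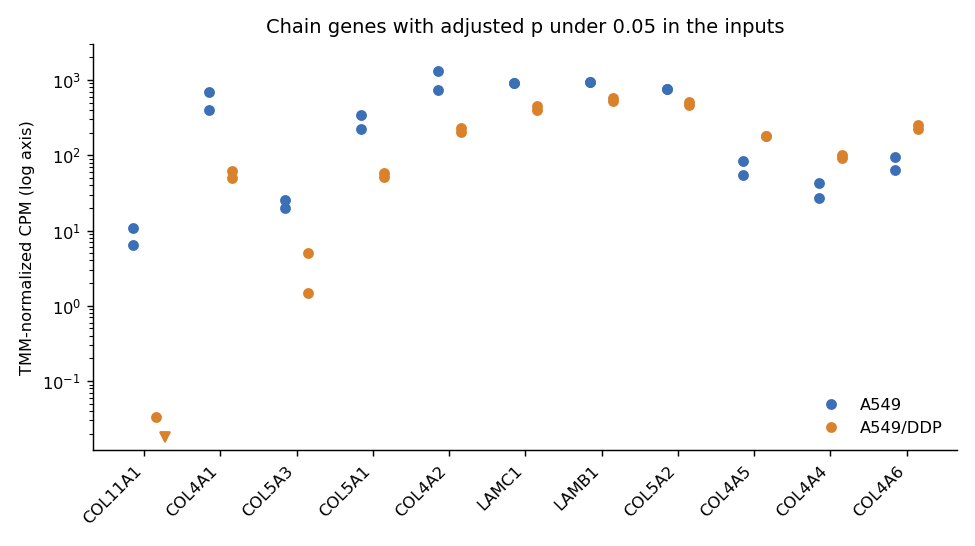
TMM-normalized CPM (counts scaled to a common library size, log axis) of 11 chain genes with an adjusted p under 0.05, 1 point per input library, A549 in blue and A549/DDP in orange, ordered by log2 fold change. In each gene both A549 points lie on one side of both A549/DDP points. The triangle marks a library with 0 counts of COL11A1.

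The collagen IV genes are shown first through the DNA they share. Each pair is transcribed in opposite directions from a common stretch. COL4A1 and COL4A2 both fell, COL4A5 and COL4A6 both rose, and of the remaining pair COL4A4 rose and COL4A3 did not pass. COL4A1 (chr13:110148963-110307157) and COL4A2 (chr13:110307284-110513209) are separated by 126 bases, COL4A4 and COL4A3 by 135 bases on chromosome 2, and COL4A6 and COL4A5 by 379 bases on chromosome X, in the RefSeq annotation of GRCh38.p14. The stretches are printed on the plus strand of that build, at chr13:110307158-110307283, chr2:227164489-227164623 and chrX:108439588-108439837, the last being the 250 bases next to COL4A5. Capitals mark CCAAT and GGGCGG on either strand, the letters bound by NF-Y and by SP1 and its relatives.

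COL4A1 and COL4A2: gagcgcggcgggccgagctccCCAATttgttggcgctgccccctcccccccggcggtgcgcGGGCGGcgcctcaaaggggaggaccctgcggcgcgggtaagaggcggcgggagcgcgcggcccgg

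COL4A4 and COL4A3: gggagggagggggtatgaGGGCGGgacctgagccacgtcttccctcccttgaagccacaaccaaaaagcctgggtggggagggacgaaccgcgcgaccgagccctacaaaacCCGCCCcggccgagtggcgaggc

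COL4A6 and COL4A5: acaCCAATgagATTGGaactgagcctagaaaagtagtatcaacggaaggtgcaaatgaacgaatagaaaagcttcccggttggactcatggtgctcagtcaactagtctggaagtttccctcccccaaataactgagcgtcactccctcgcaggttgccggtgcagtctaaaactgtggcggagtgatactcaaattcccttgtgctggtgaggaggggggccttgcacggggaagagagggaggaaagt

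The COL4A1 and COL4A2 stretch held 1 CCAAT and 1 GGGCGG in 80.2% G and C. The COL4A4 and COL4A3 stretch held 2 GGGCGG in 68.1% G and C. The COL4A6 and COL4A5 stretch held 2 CCAAT in 51.2% G and C. Among 27305 RefSeq promoters cut to the same lengths, CCAAT was found in 21.9%, 22.9% and 33.0% and GGGCGG in 34.6%, 35.6% and 42.3% for 126, 135 and 250 bases. A match is a description of letters, and no binding was measured.

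COL4A1 and COL4A2 encode the chains of the collagen IV trimer found in nearly all basement membranes. COL4A1 stood at 700 and 399 CPM in the A549 inputs and at 61.7 and 49.4 CPM in the A549/DDP inputs. Both A549 libraries lay far above both A549/DDP libraries, a 9.89-fold lower level in the resistant line (log2 fold change −3.31, SE 0.32, adjusted p = 0.00377 in edgeR's quasi-likelihood test). COL4A2 stood at 1307 and 726 CPM in A549 and at 233 and 204 CPM in A549/DDP, again without overlap (log2 fold change −2.22, SE 0.30, adjusted p = 0.00881). The A549 libraries differed from each other more than the A549/DDP libraries in both genes, with SDs of 213 against 8.70 CPM for COL4A1 and 411 against 20.7 CPM for COL4A2 (n = 2 each). COL4A1 passed the threshold under every alternative tried, whereas COL4A2 did not with the second pair of A549 inputs, alone (adjusted p = 0.384) or added to the first.

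COL4A5 and COL4A6 encode chains of a second collagen IV network, found among other places under epithelia of the skin and airway. COL4A6 stood at 93.8 and 63.4 CPM in A549 and at 255 and 222 CPM in A549/DDP. All A549/DDP values lay above all A549 values (3.03-fold, log2 fold change 1.60, SE 0.24, adjusted p = 0.0110), and the gene passed under every alternative. COL4A5 stood at 84.5 and 54.6 CPM in A549 and at 178 and 180 CPM in A549/DDP, also without overlap (log2 fold change 1.36, SE 0.25, adjusted p = 0.0191). With limma on log2(TPM + 1), COL4A5 did not pass the threshold.

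COL4A3 and COL4A4 encode chains of the network of the glomerular and alveolar basement membrane. COL4A4 stood at 27.0 and 42.3 CPM in A549 and at 99.6 and 92.1 CPM in A549/DDP (2.77-fold, log2 fold change 1.47, SE 0.27, adjusted p = 0.0203). The groups did not overlap, and the call was lost with limma on log2(TPM + 1). The span of COL4A4 shares 31851 bases with that of RHBDD1. COL4A3 stood at 23.4 and 18.6 CPM in A549 and at 36.9 and 60.0 CPM in A549/DDP. The 4 CPM values did not overlap between lines either, but the difference missed the threshold (log2 fold change 1.20, SE 0.33, adjusted p = 0.0600). In TPM the values of COL4A3 did overlap, at 6.37 and 11.99 in A549 and 8.60 and 28.57 in A549/DDP. In all, 5 of the 6 collagen IV genes passed, 3 higher and 2 lower (83.3% called, beside 14.9% of all genes tested).

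The make-up of collagen IV mRNA therefore differed between the lines. COL4A1 and COL4A2 together held 93.3% and 91.5% of collagen IV TPM in the A549 inputs and 51.6% and 51.7% in the A549/DDP inputs. COL4A5 and COL4A6 held 5.83% and 6.14% in A549 and 41.1% and 35.0% in A549/DDP. COL4A3 and COL4A4 held 0.893% and 2.35% in A549 and 7.29% and 13.4% in A549/DDP. In none of the pairs did the shares of the lines overlap. As shares of CPM, with no correction for length, COL4A1 and COL4A2 held 89.8% and 86.3% in A549 and 34.1% and 31.4% in A549/DDP. The summed level was 1158 and 813 TPM in A549 and 333 and 323 TPM in A549/DDP. TPM of COL4A2 rests on effective lengths of 2049, 1866, 2417 and 2038 bases, beside 6421, 6406, 4095 and 6400 bases for COL4A1, so the size of the gap between them in TPM, though not its sign, rests on these lengths. COL4A2 was the higher of the pair in CPM too.

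**Figure D2:**
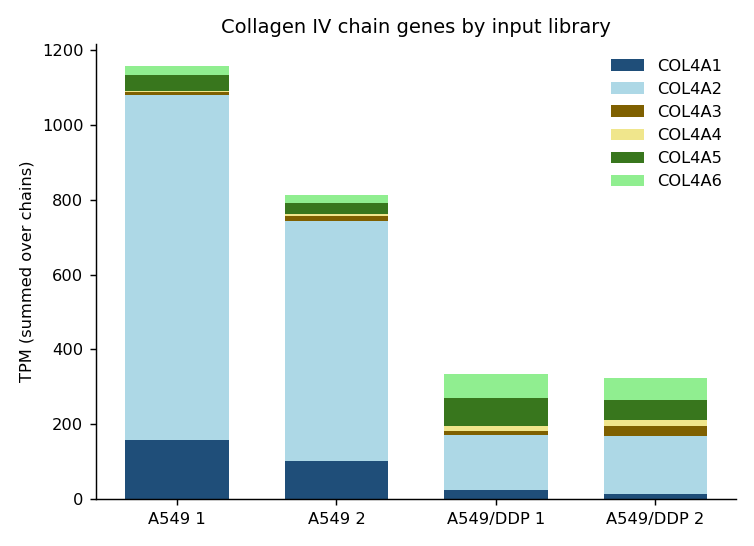
Summed level in TPM of the 6 collagen IV chain genes in each of the 4 input libraries, stacked by gene, with bars from 0. The blue parts, COL4A1 and COL4A2, make up 93.3% and 91.5% of the bar in A549 and 51.6% and 51.7% in A549/DDP.

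Of the 10 fibrillar collagen genes tested, 4 fell, none rose and 6 did not pass (40.0% called, beside 14.9% of all genes tested). The 4 that fell were the 3 chains of collagen V, which sets the diameter of collagen I fibrils, and COL11A1, a chain of the related collagen XI of cartilage. COL5A1 stood at 338 and 225 CPM in A549 and at 50.6 and 58.5 CPM in A549/DDP, 5.15-fold lower without overlap (log2 fold change −2.37, SE 0.25, adjusted p = 0.00463). COL5A2 stood at 762 and 758 CPM in A549 and at 510 and 465 CPM in A549/DDP (log2 fold change −0.64, SE 0.15, adjusted p = 0.0377). COL5A3 was much lower, at 25.5 and 19.7 CPM in A549 and at 5.09 and 1.46 CPM in A549/DDP (log2 fold change −2.79, SE 0.68, adjusted p = 0.0439). All chains of collagen V were thus lower in A549/DDP with the first pair of A549 inputs. With the second pair COL5A2 turned to a log2 fold change of 0.66 (adjusted p = 0.0292), where the median over all genes was 0.80, and COL5A3, at 0 counts in that pair, to 8.73 (adjusted p = 0.409). COL5A2 was no longer past the threshold without A549/DDP input replicate 1 (adjusted p = 0.155) or replicate 2 (0.257), and COL5A3 was not with limma (0.124). Without A549/DDP input replicate 1 the log2 fold change of COL5A3 was −3.97.

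COL11A1 stood at 10.9 and 6.49 CPM in A549 and at 0.0337 and 0 CPM in A549/DDP, or 587 counts in the A549 inputs together and 1 in the A549/DDP inputs. Scaled for library size, the ratio of A549 to A549/DDP was 554, with a 95% interval from 99.1 to 21926 that covers counting error only. The test gave an adjusted p of 0.0147, and limma on log2(TPM + 1) an adjusted p of 0.175. COL13A1, a transmembrane collagen, had 103 counts in A549 and 0 in A549/DDP, an at least 32.4-fold higher level in A549 against a floor of 3 counts over the group, but its adjusted p was 0.0853. COL28A1 had 54 counts against 1, a ratio of 51.0 (8.77 to 2050), and COL24A1 had 55 against 2, a ratio of 26.0 (6.85 to 220), and neither passed. The chains of the main connective tissue fibrils were low in both lines. COL1A1 lay between 1.85 and 14.69 TPM, COL1A2 between 0.10 and 2.69 TPM and COL3A1 between 0.11 and 1.77 TPM, with A549 and A549/DDP values overlapping in each.

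Outside collagen IV and the fibrillar chains no collagen gene passed. COL18A1 is the chain of a basement membrane collagen whose C-terminal end is released as endostatin. It had the highest mean TPM of all chain genes, at 361.33 and 491.58 TPM in A549 and 618.05 and 568.31 TPM in A549/DDP. In CPM it stood at 469 and 527 in A549 and at 653 and 559 in A549/DDP, and the difference did not pass (log2 fold change 0.28, SE 0.16, adjusted p = 0.299). The span of COL18A1 shares 11204 bases with that of SLC19A1, and reads of overlapping genes cannot be told apart where counting ignores strand. COL7A1 encodes the chain of the anchoring fibrils that tie the basement membrane to the tissue below. It stood at 841 and 732 CPM in A549 and at 694 and 778 CPM in A549/DDP, and the values overlapped (log2 fold change −0.10, SE 0.16, adjusted p = 0.754). In TPM, COL7A1 read 382.43 and 384.49 in A549 and 250.60 and 334.33 in A549/DDP, without overlap.

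COL12A1, a chain that coats fibrils, was a case where the scales parted. It stood at 152 and 83.1 CPM in A549 and at 58.1 and 62.9 CPM in A549/DDP (log2 fold change −0.96, SE 0.31, adjusted p = 0.0900). In TPM, where effective length enters, it read 25.37 and 16.43 in A549 and 34.68 and 21.80 in A549/DDP. The CPM values of COL12A1 did not overlap between lines, whereas the TPM values did, so TPM gave no clear direction. Its TPM rests on effective lengths of 8689 and 8336 bases in A549 and 2581 and 4472 bases in A549/DDP. The collagen VI chains COL6A1 and COL6A2 stood at 18.7 and 36.8 and at 12.4 and 27.8 CPM in A549, and at 20.3 and 21.4 and at 9.58 and 5.65 CPM in A549/DDP. COL6A1 values overlapped between lines and COL6A2 values did not, and neither gene passed (adjusted p = 0.555 and 0.139). COL27A1 stood at 50.2 and 57.5 CPM in A549 and at 78.0 and 58.6 CPM in A549/DDP (log2 fold change 0.34, adjusted p = 0.377).

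**Figure D3:**
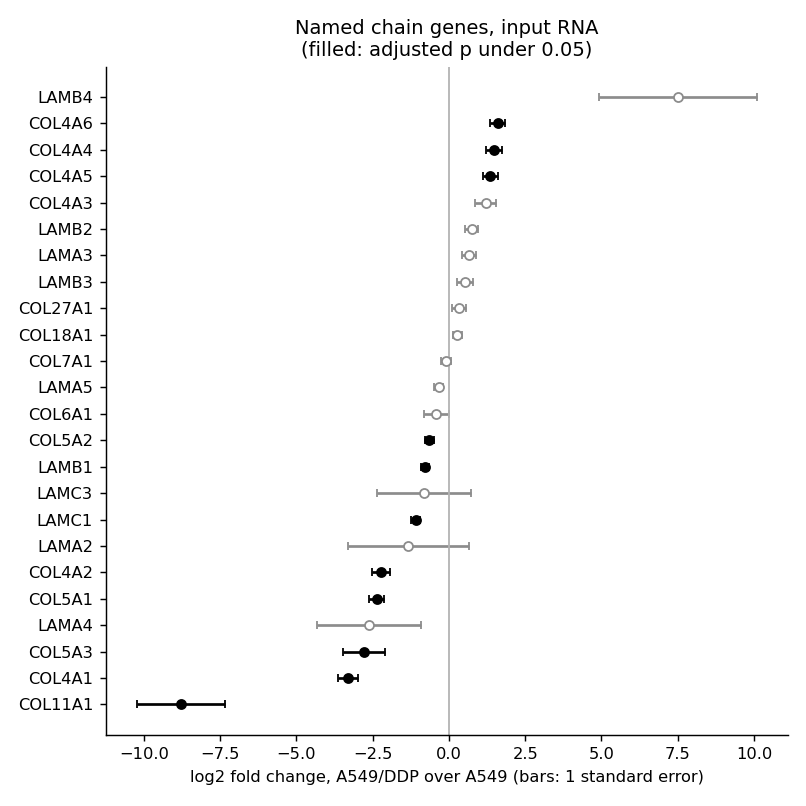
Log2 fold change of A549/DDP over A549 in input RNA for the named chain genes, with bars of 1 standard error from the fit on 2 libraries a line. Filled points have an adjusted p under 0.05. COL4A4, COL4A5 and COL4A6 lie right of 0, and COL4A1, COL4A2, the collagen V chains, COL11A1, LAMC1 and LAMB1 lie left of it. The fitted values of COL11A1 and LAMB4, with 1 and 0 counts in one line, depend on the prior count.

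LAMC1, the gamma chain of most laminin trimers, stood at 899 and 911 CPM in A549 and at 399 and 454 CPM in A549/DDP (2.12-fold lower, log2 fold change −1.09, SE 0.15, adjusted p = 0.00982). Its values did not overlap between lines. It lost its call without A549/DDP input replicate 1 (log2 fold change −1.01, adjusted p = 0.0620), with the second pair of A549 inputs (−0.15, adjusted p = 0.613) and with both pairs (−0.80, adjusted p = 0.343). LAMC3, at 2.80 and 5.25 CPM in A549 and 0.135 and 4.44 CPM in A549/DDP, overlapped and did not pass (adjusted p = 0.789).

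Of the 4 beta chains LAMB1 fell. It stood at 937 and 936 CPM in A549 and at 569 and 523 CPM in A549/DDP (log2 fold change −0.78, SE 0.14, adjusted p = 0.0210), and lost its call without A549/DDP input replicate 1 (0.101), without A549/DDP input replicate 2 (0.154) and with limma (0.0769). With the second pair of A549 inputs LAMB1 was at −0.05 (adjusted p = 0.867), and with both pairs at −0.56 (0.483). LAMB2, the other widespread beta chain, pointed the other way at 122 and 106 CPM in A549 and 220 and 165 CPM in A549/DDP, without passing (log2 fold change 0.75, SE 0.21, adjusted p = 0.0608). In TPM the 2 genes changed places, LAMB1 with 370.28 and 387.29 against 122.21 and 82.40 for LAMB2 in A549, and LAMB1 with 256.30 and 164.69 against 314.18 and 214.21 for LAMB2 in A549/DDP. LAMB2 thus exceeded LAMB1 in TPM in both A549/DDP libraries and in neither A549 library. That order rests on effective lengths of 1449, 2116, 1077 and 1194 bases for LAMB2 and of 3658, 3983, 3420 and 4921 bases for LAMB1, and in CPM LAMB1 was the higher in all 4 libraries. LAMB3, a beta chain of epithelial laminin, stood at 43.7 and 31.3 CPM in A549 and at 56.8 and 51.6 CPM in A549/DDP (log2 fold change 0.53, adjusted p = 0.213). LAMB4 had 0 counts in A549 and 44 in A549/DDP, an at least 15.5-fold higher level in A549/DDP against a floor of 3 counts over the group (adjusted p = 0.119).

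None of the 4 alpha chains tested passed. LAMA5, the main alpha chain of mature epithelia, stood at 879 and 899 CPM in A549 and at 697 and 705 CPM in A549/DDP (log2 fold change −0.34, SE 0.14, adjusted p = 0.151). LAMA3, an alpha chain of epithelial laminin, stood at 54.0 and 77.0 CPM in A549 and at 100 and 106 CPM in A549/DDP (log2 fold change 0.66, SE 0.23, adjusted p = 0.110). The values of both genes did not overlap between lines in CPM, though those of both did in TPM. LAMA4 stood at 2.37 and 1.24 CPM in A549 and 0.472 and 0.115 CPM in A549/DDP, and LAMA2 at 0.760 and 1.21 against 0.0337 and 0.745 CPM, and neither passed (adjusted p = 0.359 and 0.723).

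The alpha chains summed to 260 and 224 TPM in A549 and 220 and 240 TPM in A549/DDP, and the beta chains to 508 and 483 TPM in A549 and 605 and 404 TPM in A549/DDP. Both sums overlapped between the lines. These are levels of mRNA, and the trimers were not measured.

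**Figure D4:**
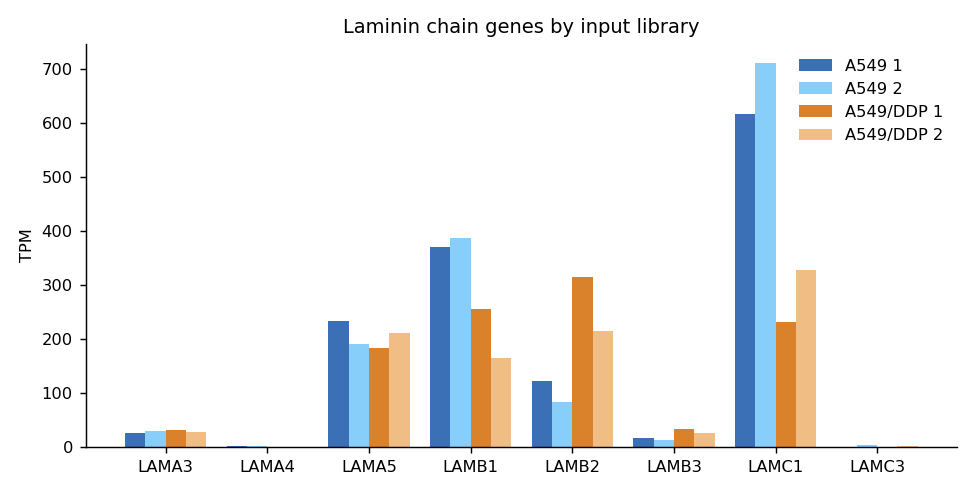
Level in TPM of 8 laminin chain genes in the 4 input libraries, 1 bar per library, from 0. LAMC1 and LAMB1 are lower in both A549/DDP bars, and LAMB2 is higher in both.

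Genes that act on the chains or bind them were read from lists of the same biology. Of 25 tested genes for collagen folding and modification, 12 rose and 3 fell (60.0% called, beside 14.9% of all genes tested), with a median log2 fold change of 1.06. Those that rose included PLOD1, a lysyl hydroxylase (1.98, adjusted p = 0.00459), and P4HB, the beta subunit of prolyl 4-hydroxylase and protein disulfide isomerase (1.44, adjusted p = 0.00486). Those that fell included LOXL2, a lysyl oxidase that crosslinks collagen IV (−1.21, adjusted p = 0.00791), and P3H2, a prolyl 3-hydroxylase that acts on collagen IV (−2.55, adjusted p = 0.00901). Several of these enzymes also serve secreted proteins other than collagens.

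Of 11 other basement membrane genes tested, 3 rose and 3 fell (54.5% called, median −0.28), among them SMOC1 (1.87, adjusted p = 0.00434), NTN4 (−1.80, adjusted p = 0.00520), FRAS1 (−1.89, adjusted p = 0.00901) and NID2, a nidogen that links laminin to collagen IV (1.37, adjusted p = 0.0299). NID1, another nidogen, was among those that fell (−2.81, adjusted p = 0.0374). Of 15 receptor genes tested, 2 rose and 2 fell (26.7% called, median −0.01). ITGA3 and ITGB4, subunits of the laminin-binding integrins alpha-3 beta-1 and alpha-6 beta-4, fell by 1.14 and 1.71 on the log2 scale (adjusted p = 0.00769 and 0.00889). SDC1, a syndecan (1.50, adjusted p = 0.0141), and DDR1, a collagen-binding receptor kinase (0.88, adjusted p = 0.0341), rose. Of 13 proteases and inhibitors tested, none rose and 2 fell (15.4% called, close to the 14.9% of all genes, median 0.58), among them TIMP2, a metalloprotease inhibitor (−1.23, adjusted p = 0.00943). Of 20 other matrix glycoprotein genes, 3 rose and 4 fell (35.0% called, median −0.03). CCN2 (−5.23, adjusted p = 0.00156) and CCN1 (−5.02, adjusted p = 0.00193), matricellular proteins, fell, and the proteoglycan VCAN (2.41, adjusted p = 0.00189) and TGFBI (1.71, adjusted p = 0.00297) rose.

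In the m6A-seq libraries, peaks are stretches where the pulled-down RNA exceeded the input. The lists give a p-value for each peak and no read depth. The depth behind a peak is thus unknown, and no test between lines was made on the lists. Peaks of a gene in a library often shared the same p-value, so their number need not count separate calls. A549 m6A-seq replicates 1 and 2 had 67 and 21 peaks in 11 and 6 chain genes, and A549/DDP replicates 1 and 2 had 44 and 29 peaks in 8 and 8 chain genes. The whole lists held 26320 and 14576 peaks in A549 and 27244 and 10661 in A549/DDP, so the libraries differed by up to that much in what was called at all. A peak in both libraries of a line was called in 6 chain genes in A549, 14.0% of the 43 tested, where 27.1% of all tested genes had one. In A549/DDP it was called in 4 chain genes, 9.3%, where 19.5% of all tested genes had one. A peak in at least 1 of the 4 libraries was called in 14 of the 43 (32.6%), where 57.0% of all tested genes had one. Many chain genes were nearly silent in these lines, and the part of level in these shares was not tested. Of the 21 chain genes with a mean of at least 10 TPM, 13 had a peak, and of 9541 tested genes with such a mean 76.0% had one. The chain transcripts were also longer, with a median effective length of 3770 bases beside 1742 over all tested genes.

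The 8 chain genes with a mean of at least 10 TPM and no peak in any library were COL7A1, COL4A1, COL4A5, COL12A1, LAMA3, COL4A4, COL4A3 and COL16A1. COL7A1, at between 250.60 and 384.49 TPM, was the most abundant of these. Within collagen IV, therefore, only COL4A2 and COL4A6 had a called peak. One gene with a lower mean, COL6A2 at 7.48 TPM, had 11 peaks, all in A549 replicate 1 and all with the same p-value.

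COL18A1 and LAMC1 were the only chain genes with a peak in all 4 libraries. COL18A1 had 3 and 5 peaks in A549 and 6 and 5 in A549/DDP. Its peaks merged into 3 regions shared by all libraries, at chr21:45468294-45476459, chr21:45509454-45512573 and chr21:45512623-45513720 on the plus strand of hg38, spans that include introns. The last of these reached the 3′ end of the gene. LAMC1 had 5 and 4 peaks in A549 and 3 and 5 in A549/DDP, with 1 region shared by all libraries at chr1:183137881-183143255. LAMC1 kept that region in both lines although its mRNA was 2.12-fold lower in A549/DDP.

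Other genes had peaks in both libraries of 1 line. COL4A2 had none in A549 and 6 and 4 peaks in A549/DDP, where its mRNA was lower. Those in both A549/DDP libraries lay at chr13:110307433-110328380, starting just inside the gene, and at chr13:110512231-110512629, near its 3′ end. LAMB2 had 5 and 4 peaks in A549 and 0 and 2 in A549/DDP, and 3 regions between 80.8% and 89.4% of the way along the gene were called in both A549 libraries alone. LAMB3 had 5 and 3 peaks in A549 and 6 and 0 in A549/DDP, and COL4A6 had 2 and 3 in A549 and 4 and 0 in A549/DDP. In these 2 genes the line with the missing library still had peaks in its other library. LAMA5 had 1 and 0 peaks in A549 and 11 and 2 in A549/DDP, and the region called in both A549/DDP libraries, chr20:62308402-62309059 on the minus strand, was also called in A549 replicate 1.

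In the remaining genes the replicates parted. COL5A1 had 11 and 0 in A549 and 0 and 7 in A549/DDP, COL27A1 had 11 and 0 in A549 and 7 and 0 in A549/DDP, and COL6A1 had 6 and 0 in A549 and 0 and 3 in A549/DDP. COL5A2 and LAMB1 had 1 peak each, in A549/DDP replicate 1 and A549/DDP replicate 2. For COL5A1 and COL27A1 the gap between replicates of A549, 11 peaks against 0, was as wide as any gap between lines in these genes.

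Merged over the libraries, the peaks of chain genes formed 91 regions. Of these, 56 (61.5%) were called in 1 library alone, where 57.2% of all 37903 regions were. Regions found by each A549 replicate and by no A549/DDP replicate numbered 5 (5.49%, beside 6.12% of all regions), and regions with the reverse pattern numbered 3 (3.30%, beside 3.09%). All 4 libraries shared 4 regions (4.40%, beside 8.72%). The shares called in 1 line alone were thus close to those over all genes. Along the genes, 31 of the 91 regions (34.1%) had their middle in the last 5% of the gene's span, beside 22.9% of the regions of all genes. Within 1000 bases of the 3′ end lay 19 (20.9%, beside 22.0%), in 11 of the 14 genes. The genes of the chains are long, and a fixed share of the span covers more bases in them.

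**Figure D5:**
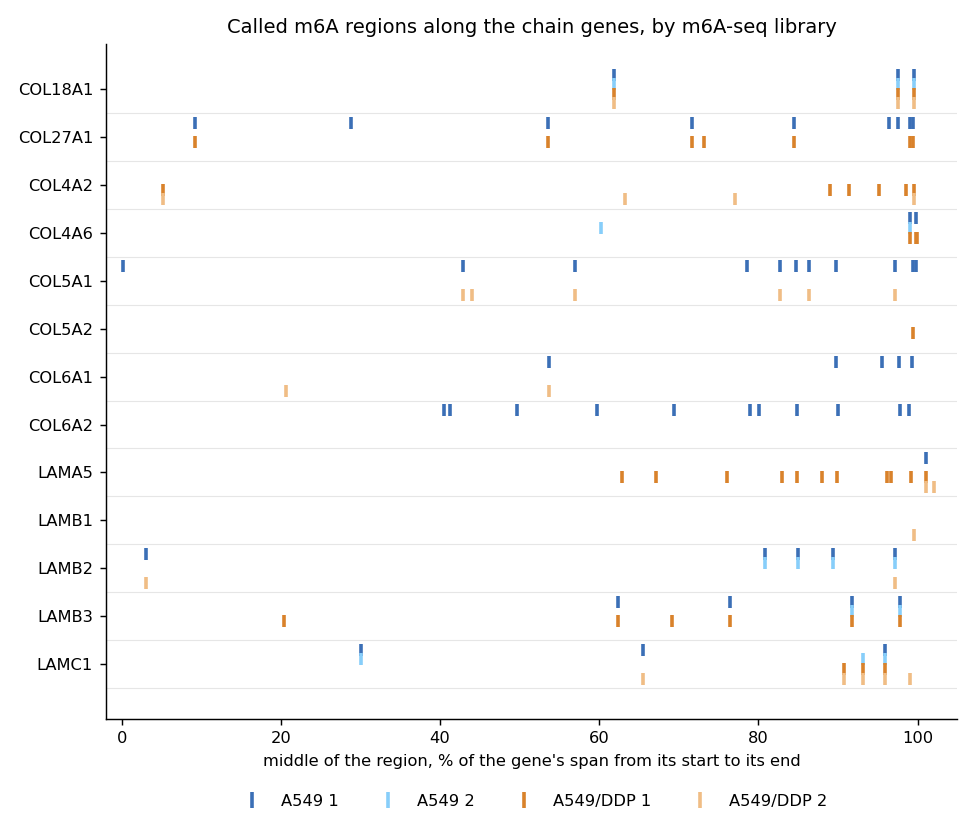
Position of each called m6A region along 13 of the chain genes with a peak, as the middle of the region in % of the gene's span from start to end, introns included, with 1 row of marks per m6A-seq library. COL18A1 and LAMC1 have marks in all 4 rows, and COL4A2 has marks in the A549/DDP rows alone. Marks past 100% lie beyond the gene's annotated end.

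Of the 12 genes that passed in the inputs, 7 had a called peak in some library and 5 did not, and of the 31 that did not pass, 7 had one. Over all tested genes 57.0% had one, and the same split was not made over them. Many of the 31 were nearly silent, and the part of level was not tested. In COL4A2 the mRNA level was lower in A549/DDP and the peaks were called in that line alone. A change of m6A per transcript was not tested, since the lists hold no depth.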

How the data were processed

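Poly(A) RNA of A549 and A549/DDP cells was fragmented, pulled down for m6A or kept as input, and sequenced from strand-specific libraries. For each input library the authors deposited expected counts per gene, estimated with RSEM after STAR alignment to hg38 and not normalized, and TPM, scaled by the authors for effective length and library size. The deposited peak list of an m6A-seq library gives gene, strand, exon blocks and 1 p-value per peak, whose adjustment and caller are not given in the sources used here. Versions, and whether counting used strand, are not given there either. Replicates were not pooled by the authors, and no values stood outside the mapped columns. Replicate numbers of the A549 m6A-seq libraries follow the labels, which differ here from the names of the files.

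Of 58037 gene identifiers 56993 matched a symbol. After rounding of the expected counts, filterByExpr and TMM scaling, the quasi-likelihood test of edgeR 4.0.16 (R 4.3.3) was run with Benjamini-Hochberg adjustment over 16406 genes and a threshold of 0.05. SEs were taken as the absolute log2 fold change divided by the root of the F value. The common biological coefficient of variation was 0.656. The test was also run on simulated counts, which had less spread than these libraries, so that run does not show how the test performs here. Intervals of count ratios are at 95%. Peaks of one strand were merged when their exon blocks had 1 base or more in common. Gene spans and promoter sequences are those of RefSeq for GRCh38.p14. Alternatives were DESeq2 1.42.0, its size factors in edgeR, no filter, limma 3.58.1 on log2(TPM + 1) for genes with a mean of at least 1 TPM, a block for the replicate number, the second pair of A549 inputs alone or with the first, leaving out each library, a peak p-value of at most 1e-05 and a 50% overlap. Where a line is left with 1 library, that library is assumed to vary like those of the other line. Plots were drawn with Python 3.11.15 and matplotlib 3.10.9.

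Named with values were chain genes past the threshold, the 12 with the highest mean TPM, those with a peak in at least 2 libraries, all collagen IV chains and all laminin chains tested, and up to 4 genes of each pathway list with the lowest adjusted p. COL13A1, COL28A1, COL24A1, COL1A1, COL1A2, COL3A1, COL12A1, COL16A1, COL6A2 and NID1 were added after their values were seen. One chain gene, counted in the totals, and one gene of a pathway list are not reported here. The chain genes, lists and tests were chosen with earlier results of these data known.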

Additional observations from a re-analysis of the deposited data

How the results depend on the processing

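Over 25 named chain genes and 269 pairs of a gene and an alternative, 216 kept direction and side of the threshold, 23 lost the call, 21 gained one and 9 changed sign. The sign changes with the second pair of A549 inputs were COL7A1 at a log2 fold change of 2.33, LAMA5 at 1.17, COL5A2 at 0.66, COL6A1 at 0.33 and COL5A3, with 0 counts in that pair, at 8.73. With that pair the median over all genes was 0.80, so COL5A2 and COL6A1 lay below that median. With both pairs COL7A1 was at 0.56 and LAMA5 at 0.13. On leaving out a library, COL6A1 ran from −0.84 to 0.14, positive without A549 input replicate 2, and LAMC3 from −4.86 to 0.12, positive without A549/DDP input replicate 1. The cause was not tested.

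With both pairs of A549 inputs 3 chain genes passed, all from the 12 of the main fit, 1 higher and 2 lower in A549/DDP. The second pair alone gave 12 calls, 10 higher and 2 lower. Only 6 of these were among the 12 of the main fit, 5 in the same direction. All genes moved too, with 4.10% called with both pairs, 27.2% with the second pair, 25.8% with DESeq2, 17.6% with no filter and 11.1% to 20.7% on leaving out a library, beside 14.9%. Higher genes numbered 5 with DESeq2, 6 with no filter and 3 to 6 on leaving out a library, beside 3. On leaving out a library, all calls ran from 10 to 17 and lower ones from 7 to 11. Same-numbered input libraries of the 2 lines did not deviate together (correlation 0.0259), and the labels do not tie numbers to a culture. The main fit used no pairing by replicate number. Whether same-numbered input and m6A-seq libraries belong together was not tested. With a replicate block 15 chain genes passed, 5 higher and 10 lower, with COL4A3 (adjusted p = 0.0216), LAMB2 (0.0180) and COL12A1 (0.0216) added, and 3536 genes in all passed (21.6%).

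Of the peak counts, genes with a peak in both libraries numbered 1 in A549 and 0 in A549/DDP at a p-value of at most 1e-05, and regions in 1 line alone 2 and 0. With 1 library left out, the rule was looser. A gene then needed a peak only in the library left of its line, so the number of genes could only stay or rise. Under that rule genes ran from 6 to 11 in A549 and from 8 to 8 in A549/DDP. Regions, for which fewer libraries also had to be met, ran from 6 to 34 in A549 and from 4 to 22 in A549/DDP. A 50% overlap gave 6 regions for A549 and 3 for A549/DDP. The lists hold no depth, which limits every comparison of peaks.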
